A study of Mus musculus with 6 samples.

Results

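The hedgehog receptors and Gli factors are a set of 7 genes that carry the hedgehog signal from the cell surface to the nucleus. They are the receptors Ptch1 and Smo, the Gli inhibitor Sufu, the transcription factors Gli1, Gli2 and Gli3, and Hhip, a membrane protein that binds and holds back hedgehog ligands. The genes were taken by name from the gene table, and 6 of the 7 were found among its 21686 genes. Hhip has no row in the table used here, which lists no gene with a count of 0 in every library.

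Without a ligand, Ptch1 keeps Smo inactive, Sufu holds the Gli proteins in the cytoplasm, and Gli3 is largely cut to a form that represses its targets. When a ligand such as Ihh or Shh binds Ptch1, Smo gathers in the primary cilium and full-length Gli proteins, Gli2 above all, turn on target genes. Gli1, Ptch1 and Hhip are themselves such targets and are used as readouts of the pathway, which in bone is known for its part in the start of osteoblast differentiation.

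RNA was sequenced from MC3T3-E1 Subclone 14 cells, a clonal mouse line of osteoblast precursors, in 6 libraries of 2 for each of 3 groups, all collected at 72 hours. Control cells received 100 µL of PBS, dexamethasone cells received 10 µM of this synthetic glucocorticoid, and dexamethasone + EPC-EVs cells received 10 µM dexamethasone together with 100 µg of vesicles shed by endothelial progenitor cells from mouse bone marrow. The comparisons ask what dexamethasone did to the cells and what the vesicles did on top of it. The study calls the 2 libraries of a group biological replicates, and the labels do not say whether they came from separate cultures. The p-values thus measure the spread between these libraries.

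Total counts were 5146760 to 6583735 in the control and dexamethasone libraries and 12864009 to 13182014 in the dexamethasone + EPC-EVs libraries. Of 10 osteoblast markers, 5 reached 10 counts in every library, Runx2 lay between 154 and 204 CPM (counts scaled to the library total, after TMM normalisation), and Alpl, a defining enzyme of the lineage, lay between 0 and 3.20 CPM. The collagen genes Col1a1 and Col1a2 lay between 2224 and 2907 CPM in control and dexamethasone and between 6793 and 11561 CPM in dexamethasone + EPC-EVs, and Spp1 went the other way, from 10336 to 11380 CPM in the former and 4328 and 6051 CPM in the latter. Of 8 endothelial markers 7 had a row, their sum was 365 to 420 CPM in control and dexamethasone and 238 to 288 CPM in dexamethasone + EPC-EVs, and Cd34 made up nearly all of it. Cdh5, Tek, Prom1 and Emcn were at 0 in at least 5 of the 6 libraries and their highest level was 1.60 CPM. The summed level of 5 smooth muscle and pericyte markers was 485 to 560 CPM in control and dexamethasone and 2674 to 2818 CPM in dexamethasone + EPC-EVs. Acta2 made up most of it, at 2392 and 2425 CPM in dexamethasone + EPC-EVs, whereas Rgs5 was at 14.0 to 30.0 CPM in control and dexamethasone and at 0.314 and 0.386 CPM there, and Myh11 stayed under 1 CPM. Mitochondrially encoded genes took 5.55 to 8.62% of the counts in the former and 0.465 to 0.727% in the latter. The part of these shifts in the results on hedgehog genes was not tested. They and the total counts run along with the dexamethasone + EPC-EVs group. An effect of the vesicles and a difference between sets of libraries thus cannot be told apart in this design. In bulk RNA a lower level can mean fewer cells of a kind or less RNA per cell, and the 2 cannot be told apart.

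The 6 genes lay at chr13:63508328-63573598 (Ptch1, minus strand), chr6:29735503-29761365 (Smo, plus strand), chr19:46396896-46488804 (Sufu, plus strand), chr10:127329882-127341974 (Gli1, minus strand), chr1:118834132-119053619 (Gli2, minus strand) and chr13:15463235-15730026 (Gli3, plus strand) of GRCm38 in GENCODE vM21. Ptch1, Smo and Gli3 each share bases with a less known gene on their own strand (A930032L01Rik, Gm13717 and Gm48343), and Gli1 overlaps Arhgap9 on the other strand. The study's methods aligned the reads as stranded. Whether the counting used strand is not given in the sources used here, so reads from those overlaps cannot be assigned with certainty. Sufu overlaps no other annotated gene.

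The windows of 250 bases upstream of the start sites of Smo, Gli2 and Sufu are shown, for the receptor that rose, the Gli factor seen in a single group and the inhibitor that acts between them. The sequences are from RefSeq on GRCm38.p6, on the gene's own strand, where 6 of the 7 genes had an entry. Hhip was among these, and Gli1 had no entry.
Smo, chr6:29735247-29735496, plus strand: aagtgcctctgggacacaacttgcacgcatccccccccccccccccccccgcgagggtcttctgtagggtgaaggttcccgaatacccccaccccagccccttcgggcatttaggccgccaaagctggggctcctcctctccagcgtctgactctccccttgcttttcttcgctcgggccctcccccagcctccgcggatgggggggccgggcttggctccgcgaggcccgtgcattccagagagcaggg
Gli2, chr1:119053620-119053869, minus strand: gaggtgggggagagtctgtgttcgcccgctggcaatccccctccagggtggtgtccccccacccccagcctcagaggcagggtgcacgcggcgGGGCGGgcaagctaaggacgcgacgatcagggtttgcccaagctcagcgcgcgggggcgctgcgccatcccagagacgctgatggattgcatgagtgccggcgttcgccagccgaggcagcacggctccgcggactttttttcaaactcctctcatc
Sufu, chr19:46396646-46396895, plus strand: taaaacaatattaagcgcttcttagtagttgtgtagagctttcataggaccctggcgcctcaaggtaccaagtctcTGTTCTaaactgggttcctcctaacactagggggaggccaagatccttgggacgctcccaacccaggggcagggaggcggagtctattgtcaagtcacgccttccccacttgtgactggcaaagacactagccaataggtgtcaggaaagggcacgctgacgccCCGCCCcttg
Capitals mark GGGCGG, the core of a GC box bound by Sp factors, or AGAACA, the hexamer that a glucocorticoid receptor monomer recognises, on either strand (CCGCCC and TGTTCT when read from the opposite one). Both motifs were chosen after the data were seen. This hexamer stood in the Sufu window only, 1 of the 6 windows, against 16.1% of all 32817 windows of the same length. A GC box stood in 5 of 6, all but Smo, against 32.7%. The Gli binding motif GACCACCCA stood in none of the 6 on either strand and in 0.225% of all windows. Gli1, without an entry, was not searched for any of these motifs. The 6 windows were 54.0 to 78.4% G and C, with a median of 52.4% over all windows.

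Levels per length, in FPKM, set the order of the genes within a group. Smo was the most abundant, with 25.8 ± 3.16 FPKM in control (SD, n = 2), 27.5 ± 1.54 FPKM after dexamethasone and 55.1 ± 0.121 FPKM after dexamethasone + EPC-EVs. Gli3 followed at 15.3 ± 0.595, 15.9 ± 1.61 and 14.1 ± 1.58 FPKM in the same order of groups. Smo and Gli3 did not overlap in any group, so the signal transducer and the Gli protein best known as a repressor were the 2 most abundant transcripts of the set throughout. Sufu stood at 6.29 ± 2.88, 8.98 ± 0.859 and 8.77 ± 0.136 FPKM. Ptch1 stood at 3.15 ± 0.621, 3.25 ± 0.315 and 2.37 ± 0.0907 FPKM. Gli1 stood at 1.18 ± 0.131, 3.29 ± 0.470 and 1.83 ± 0.803 FPKM. Ptch1 lay above Gli1 in both control libraries, whereas the libraries of these neighbours overlapped in the other 2 groups. Gli2 was last, at 0.288 ± 0.156 FPKM in dexamethasone and at 0 in the 4 other libraries.

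**Figure D1:**
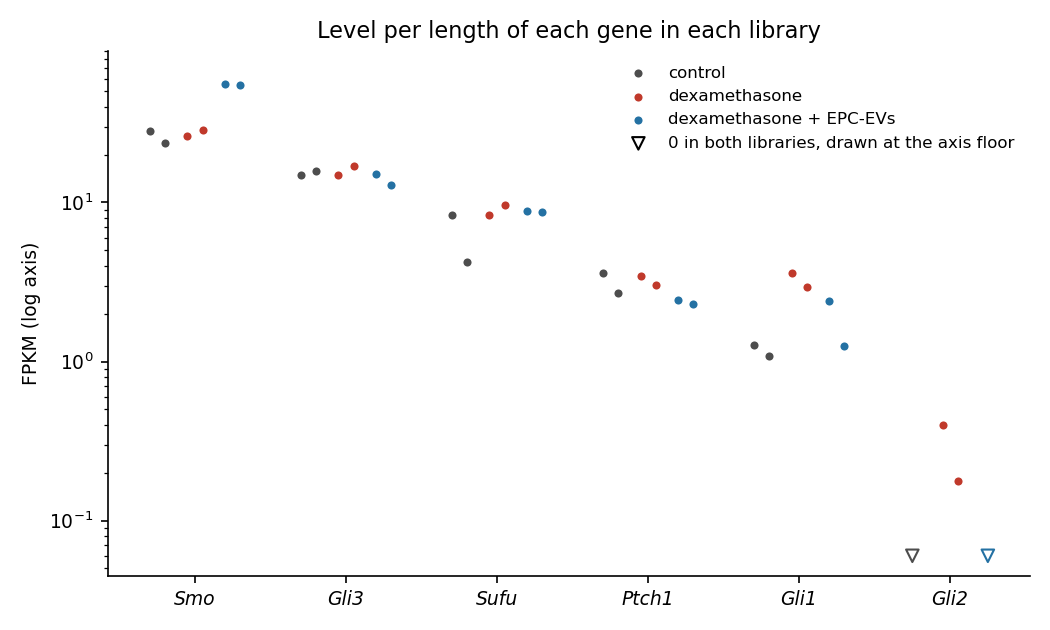
FPKM of 6 hedgehog genes on a log axis, 1 point per library and 1 colour per group, with open triangles for groups in which both libraries were at 0. Smo stands highest in every library, its dexamethasone + EPC-EVs points (55.0 and 55.2 FPKM) lie above all others, and Gli2 has points in dexamethasone alone.

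Ptch1, the ligand receptor and a target of the pathway, stood at 51.3 and 39.6 CPM in control, 47.7 and 41.5 CPM in dexamethasone, and 34.9 and 33.2 CPM in dexamethasone + EPC-EVs. The libraries of control and dexamethasone overlapped, and both dexamethasone + EPC-EVs libraries lay below all 4 others. Between dexamethasone and control the log2 fold change was -0.03 (SE 0.242, 95% interval -0.57 to 0.50, adjusted p = 0.982, edgeR quasi-likelihood test with Benjamini-Hochberg adjustment over all genes tested). Between dexamethasone + EPC-EVs and dexamethasone it was -0.41 (SE 0.200, interval -0.85 to 0.03, adjusted p = 0.126 by the same edgeR test). Against control it was -0.44 (SE 0.252, interval -1.01 to 0.14, edgeR adjusted p = 0.208). None of these passed the threshold of 0.05.

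Smo, the transducer that Ptch1 holds in check, stood at 159 and 137 CPM in control, 144 and 155 CPM in dexamethasone, and 313 and 315 CPM in dexamethasone + EPC-EVs. The 2 dexamethasone + EPC-EVs libraries differed from each other by far less than from the other 4, none of which overlapped with them. Smo was upregulated 2.07-fold in dexamethasone + EPC-EVs against dexamethasone (log2 fold change 1.05, SE 0.128, 95% interval 0.77 to 1.33, edgeR adjusted p = 8.20e-05). Against control it was upregulated likewise (log2 fold change 1.07, SE 0.179, interval 0.66 to 1.48, edgeR adjusted p = 0.00267). Dexamethasone alone gave a log2 fold change of 0.01 against control (SE 0.168, interval -0.36 to 0.38, edgeR adjusted p = 0.991).

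The rise of Smo moved with a shift of all genes by base composition. Between dexamethasone + EPC-EVs and dexamethasone, the genes tested were ranked by the GC content of their transcripts and split into 5 classes of equal size. The median log2 fold change went from -0.72 in the class of lowest GC content to 0.72 in the class of highest, where Smo lies with 57.8% GC. Against control the medians went from -0.94 to 1.11, so that the log2 fold change of Smo, 1.07, lay just under the median of its own class. With the trend on GC content and transcript length removed, the log2 fold change of Smo was 0.33 against dexamethasone (edgeR adjusted p = 0.0717) and -0.09 against control (edgeR adjusted p = 0.734). The calls of Smo thus did not hold under this alternative, which was chosen after the data were seen. Smo stayed past the threshold in both comparisons under the 13 other alternatives that used the adjusted p.

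The ratio of Smo to Ptch1, both per length, was 7.82 and 8.71 in control, 7.60 and 9.44 in dexamethasone, and 22.7 and 23.9 in dexamethasone + EPC-EVs. The last 2 lay apart from the rest. Smo has a GC content of 57.8% and Ptch1 of 47.8%, and the part of base composition in this ratio was not tested.

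Sufu, which binds Gli proteins and keeps them from the nucleus, stood at 58.2 and 30.4 CPM in control, 56.4 and 64.5 CPM in dexamethasone, and 62.2 and 61.2 CPM in dexamethasone + EPC-EVs. Control replicate 2 was the lowest library, and the 5 others lay close together. The log2 fold change was 0.44 in dexamethasone against control (SE 0.293, interval -0.21 to 1.09, edgeR adjusted p = 0.609). It was 0.01 in dexamethasone + EPC-EVs against dexamethasone (SE 0.173, interval -0.37 to 0.39, edgeR adjusted p = 0.968) and 0.46 against control (SE 0.307, interval -0.24 to 1.16, edgeR adjusted p = 0.276). The level of Sufu in control rests on which library is taken. Without control replicate 1, the log2 fold change was 0.99 in dexamethasone against control (edgeR adjusted p = 0.00337) and 1.04 in dexamethasone + EPC-EVs against control (edgeR adjusted p = 0.00836), each past the threshold. Without control replicate 2, they were 0.067 (edgeR adjusted p = 0.946) and 0.089 (edgeR adjusted p = 0.773). A group left with 1 library is assumed in such fits to vary like the other group, and without control replicate 1 the genes called between dexamethasone and control went from 0.0544% to 16.0% of those tested. With the GC content and length trend removed, Sufu was lower in dexamethasone + EPC-EVs than in dexamethasone, with a log2 fold change of -0.53 (edgeR adjusted p = 0.0379). Against control it turned to -0.39 in that setting, where Sufu was not called.

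Gli1, the Gli factor that is itself a pathway target, stood at 6.41 and 5.61 CPM in control, 17.5 and 14.3 CPM in dexamethasone, and 12.1 and 6.40 CPM in dexamethasone + EPC-EVs. These came from 28 to 154 counts per library. Both dexamethasone libraries lay above the 4 others, and dexamethasone + EPC-EVs replicate 2 was at the level of control. The log2 fold change in dexamethasone against control was 1.40, with an unadjusted p of 0.00979 and an adjusted p of 0.346 (edgeR, SE 0.445, interval 0.41 to 2.38), so that Gli1 was not called. It was 0.93 with the GC content and length trend removed (edgeR adjusted p = 0.558), and the class of highest GC content, in which Gli1 lies, had a median of 0.37 in this comparison. Of the 12879 genes tested in this comparison, 10.9% had an unadjusted p under 0.05, and Gli1 ranked 358 among them. Without control replicate 1, where control is 1 library and 16.0% of all genes tested were called, its log2 fold change was 1.50 (edgeR adjusted p = 0.0405), and without control replicate 2 it was 1.32 (edgeR adjusted p = 0.250).

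In dexamethasone + EPC-EVs against dexamethasone, the log2 fold change of Gli1 was -0.80 (SE 0.378, interval -1.63 to 0.03, edgeR adjusted p = 0.113), with both libraries below both dexamethasone libraries. It was -1.31 without dexamethasone + EPC-EVs replicate 1 (edgeR adjusted p = 0.0412) and -0.40 without replicate 2 (edgeR adjusted p = 0.534), so that its size rests on which library is taken. With the GC content and length trend removed it was -1.62 (edgeR adjusted p = 0.00681). Gli1, at 59.0% GC, lies in the class of highest GC content, whose median was 0.72. Against control the log2 fold change of Gli1 was 0.60 (SE 0.517, interval -0.58 to 1.78, edgeR adjusted p = 0.395). It turned to -0.70 with the trend removed, where Gli1 was not called.

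Gli2, known as the main activator among the Gli factors, had 18 and 8 counts in dexamethasone and 0 counts in each of the 4 other libraries. The groups do not overlap, but the 26 counts amount to 1.91 CPM over the group (exact Poisson 95% interval 1.25 to 2.81 CPM). A count of 0 allows up to 3 counts over a group, or 0.271 CPM in control and 0.117 CPM in dexamethasone + EPC-EVs. The low end of the pooled interval lay 4.62-fold above that floor in control and 10.7-fold above it in dexamethasone + EPC-EVs. The pooled 1.91 CPM lay 7.07-fold and 16.4-fold above it. Dexamethasone replicate 2 alone, at 1.18 CPM, lay under that low end, so these are not minimum fold changes. Intervals and floors cover counting error only. Gli2 passed the low-count filter only between dexamethasone + EPC-EVs and dexamethasone, through the dexamethasone libraries, where the edgeR adjusted p was 0.0107. The call did not hold when any library was left out or in limma on log2(FPKM + 1), where the adjusted p was 0.157. Without dexamethasone replicate 1 Gli2 was not tested, and without each of the 3 others its edgeR adjusted p was 0.0514, 0.0907 and 0.0886.

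The annotated Gli2 transcript ENSMUST00000062483.14, of 14 exons and 6637 bases, was estimated at 0.312 and 0.0993 FPKM in the dexamethasone libraries and listed at 0 in the others. It stayed under the minimum of 1 FPKM in 2 libraries and was not tested. Without that filter, limma on log2(FPKM + 1) gave a log2 fold change of 0.26 in dexamethasone against control (adjusted p = 0.723) and -0.26 in dexamethasone + EPC-EVs against dexamethasone (adjusted p = 0.485).

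Gli3, the Gli factor that acts mostly as a repressor, stood at 143 and 155 CPM in control, 138 and 159 CPM in dexamethasone, and 147 and 126 CPM in dexamethasone + EPC-EVs. The libraries of every pair of groups overlapped. Its log2 fold changes were -0.01 in dexamethasone against control (SE 0.169, interval -0.39 to 0.36), -0.14 in dexamethasone + EPC-EVs against dexamethasone (SE 0.146, interval -0.46 to 0.19) and -0.14 against control (SE 0.187, interval -0.57 to 0.28). The edgeR adjusted p-values were 0.991, 0.494 and 0.581, and the intervals exclude a doubling and a halving of Gli3 in each comparison.

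Gli1 made up 7.91 and 6.49% of the summed FPKM of Gli1, Gli2 and Gli3 in control, 19.2 and 14.6% in dexamethasone, and 13.6 and 8.87% in dexamethasone + EPC-EVs. Gli3 made up most of the rest, 78.7 to 93.5%. The share of Gli1 was highest in the 2 dexamethasone libraries, while the dexamethasone + EPC-EVs libraries lay between them and control. Gli1 has a GC content of 59.0% and Gli3 of 48.4%, and the part of base composition in these shares was not tested.

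**Figure D2:**
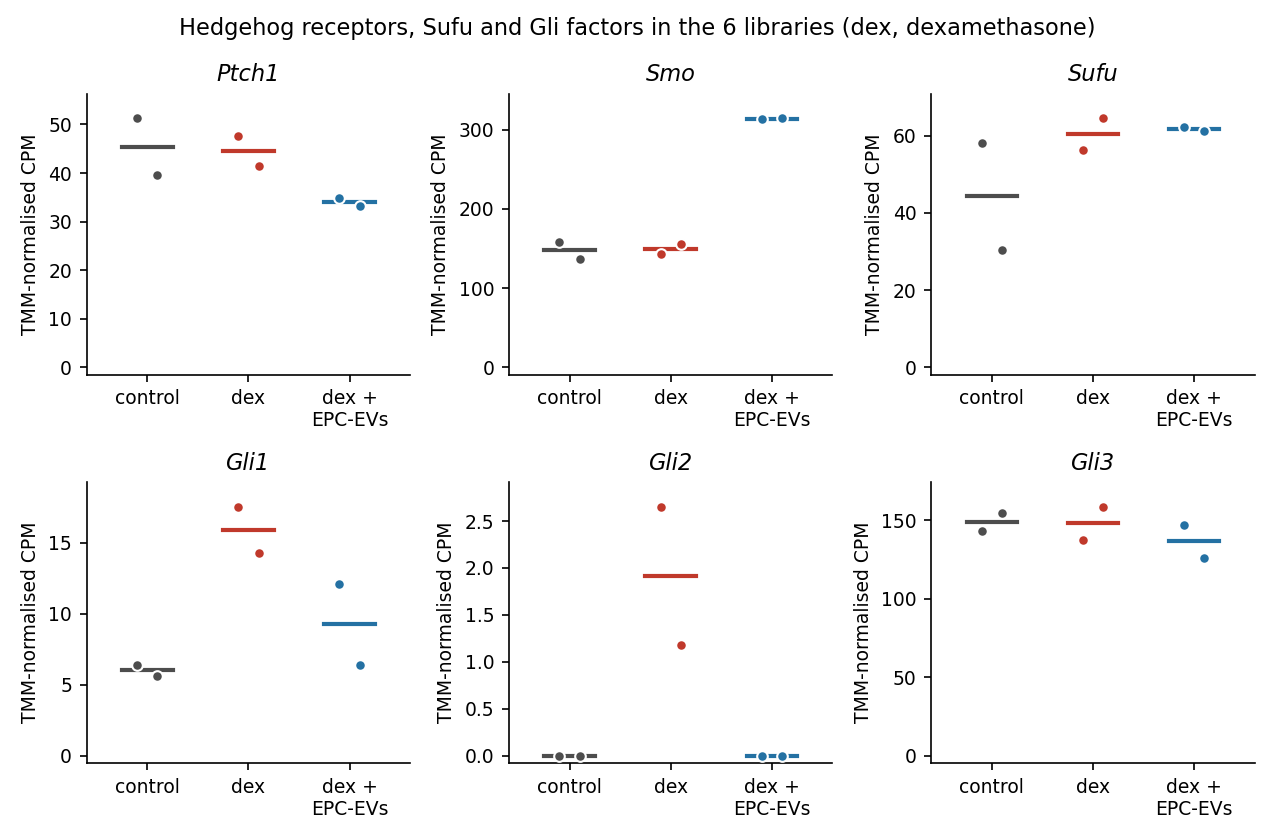
TMM-normalised CPM of 6 hedgehog genes, with 1 panel per gene, 1 point per library and a line at the mean of each group. Smo stands apart in dexamethasone + EPC-EVs (313 and 315 CPM), Gli1 and Gli2 are highest in dexamethasone, Gli3 overlaps between all groups, and the 2 control libraries of Sufu lie at 58.2 and 30.4 CPM.

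Counted over the set, 0 of the 5 genes tested between dexamethasone and control were called by edgeR, and Gli1 alone had an unadjusted p under 0.05, where 0.0544% of all genes tested were called. DESeq2 called none of the other 4 and gave no adjusted p for Gli1. Of those 5, Gli1 alone had no overlap between the libraries of control and dexamethasone, which held for 43.9% of all genes. Between dexamethasone + EPC-EVs and dexamethasone, 1 of the 5 genes with counts in every library was called, Smo, with 39.8% of all genes called, 20.9% higher and 18.9% lower. Gli2, tested only because it is high in dexamethasone, was called as well and is left out of this count. Among the 5, the libraries of Ptch1, Smo and Gli1 did not overlap, against 72.4% of all genes. Between dexamethasone + EPC-EVs and control 1 of 5 was called, Smo, with 36.4% of all genes called and 19.1% called higher, and the libraries of Ptch1, Smo and Sufu did not overlap, against 73.0% of all genes. In these fits the share called among the hedgehog genes was not above that of all genes in the last 2 comparisons. With the GC content and length trend removed, Sufu and Gli1 were called lower in dexamethasone + EPC-EVs than in dexamethasone. Smo was not called there. In that fit 31.7% of all genes were called, 15.8% lower, so the share among the 5 was above that of all genes. Against control none of the 5 was called then, with 26.4% of all genes called. The comparisons share libraries, so their values are not independent of each other.

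**Figure D3:**
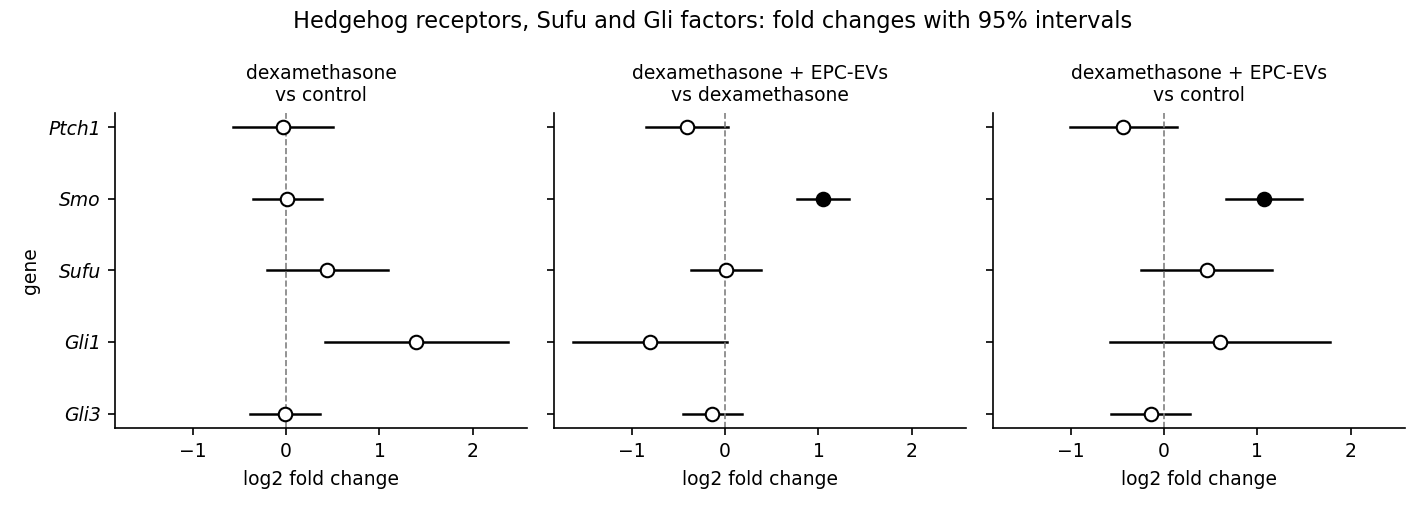
Log2 fold changes with 95% intervals from edgeR in the 3 comparisons, for the 5 genes with counts in every library. Filled points have an adjusted p under 0.05, and only Smo is filled, at 1.05 and 1.07. The interval of Gli1 in dexamethasone against control, 0.41 to 2.38, leaves out 0 although its adjusted p was 0.346.

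**Figure D4:**
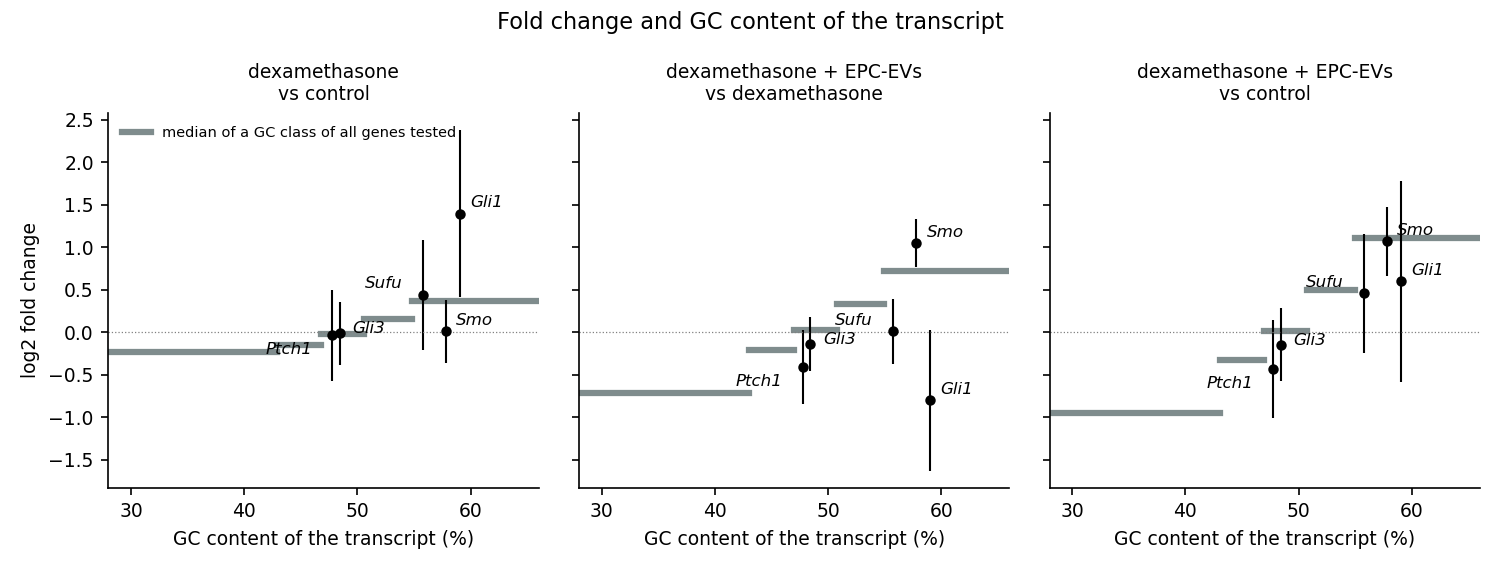
Log2 fold change against the GC content of the transcript in percent, with grey lines at the median of each of 5 equal classes of all genes tested (the highest class runs on to 78.3%) and points with 95% intervals for 5 hedgehog genes. In dexamethasone + EPC-EVs against control Smo sits on the line of its class, at 1.11, and in dexamethasone + EPC-EVs against dexamethasone Gli1 lies furthest below its own, at 0.72.

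The genes whose levels followed each hedgehog gene most closely over the 6 libraries were ranked by Pearson's r of log2 CPM among 9218 genes whose mean reached 10 CPM, as a description. The libraries share treatments and depth. C4b (r = 0.987) came first for Ptch1, Dzip1l (r = 0.998) for Smo, Pisd (r = 0.997) for Sufu, Col18a1 (r = 0.988) for Gli1 and Serpinb8 (r = 0.967) for Gli3. Ctsl and Snx6 followed for Ptch1, Yif1b and Pank3 for Smo, Pnpla2 and Rnf24 for Sufu, Mapk11 and S100a13 for Gli1, and Parpbp and Stk10 for Gli3. Over so few libraries many genes reach such values.

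A list of 52 other genes of the pathway gave the surroundings of the 7, and 48 of these were in the table. No ligand was seen at a level that could be tested. Shh had no row, and Ihh had 1 count and Dhh 4 counts over all 6 libraries. Between dexamethasone and control, 0 of the 43 tested were called by edgeR and 8 had an unadjusted p under 0.05, 18.6% against 10.9% of all genes. DESeq2 called none of the 24 to which it gave an adjusted p, and the median log2 fold change of the 43 was -0.01 against 0.01 for all genes. Without control replicate 1, which leaves control with 1 library, edgeR called 12 of 44, 27.3% against 16.0% of all genes in that fit.

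In dexamethasone + EPC-EVs against dexamethasone, 18 of the 45 tested were called, 40.0% against 39.8% of all genes, with 11 higher and 7 lower. The median log2 fold change of the 45 was 0.21, against 0.01 for all genes. With the GC content and length trend removed, 16 were called, 35.6% against 31.7% of all genes in that fit, 8 higher and 8 lower, and the median was 0.075 against 0.031 for all genes. Of the 4 co-receptors tested, which help ligands bind Ptch1, 3 rose, 75% against 20.9% of all genes called higher. They were Gas1 (log2 fold change 1.32, SE 0.157, edgeR adjusted p = 7.01e-05), Boc (0.92, SE 0.207, adjusted p = 0.00451) and Cdon (0.73, SE 0.178, adjusted p = 0.00665). Lrp2, the other one, was at 1.62 ± 0.833 and 0.390 ± 0.115 CPM and was not called (adjusted p = 0.170). Gas1 and Cdon held with the GC content and length trend removed, at 0.56 (adjusted p = 0.0150) and 0.77 (adjusted p = 0.00631), whereas Boc did not, at 0.35 (adjusted p = 0.218), so that 2 of the 4 were then called higher, 50% against 16.0% of all genes in that fit. Boc was not called without dexamethasone replicate 1, nor was Cdon without either dexamethasone library.

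Of the 6 genes tested for building or transport in the primary cilium, where Smo acts, 3 fell by edgeR's test and none rose, 50% called against 39.8% of all genes, of which 18.9% were called lower. Arl13b, a small GTPase of the cilium membrane, had a log2 fold change of -1.81 (SE 0.198, adjusted p = 3.78e-05). Rpgrip1l, a protein of the transition zone at the base of the cilium, had -1.18 (SE 0.187, adjusted p = 0.000482), and Kif3a, a subunit of the motor that carries cargo to the tip, had -1.16 (SE 0.169, adjusted p = 0.000283). All 3 stayed called under the 14 alternatives, and once the GC content and length trend was removed the log2 fold changes of Arl13b and Rpgrip1l were -1.39 and -0.55. Ift88, Ift172 and Dync2h1 were not called. Dync2h1, a motor subunit for the return from the tip, was called higher once the trend was removed, which left 3 of the 6 lower and 1 higher, 66.7% called against 31.7% of all genes in that fit, and moved their median log2 fold change from -0.92 to -0.30.

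Of the 10 partners of Smo and regulators in the cilium, 3 rose and 1 fell, 40.0% called against 39.8% of all genes. Grk2, a kinase that phosphorylates active Smo, rose with a log2 fold change of 1.14 (SE 0.159, edgeR adjusted p = 0.000203). Iqce (0.59, adjusted p = 0.0413) and Evc (0.44, adjusted p = 0.0496), which belong to the complex that holds Smo in a zone of the cilium, rose, and Efcab7 of the same complex fell at -1.98 (adjusted p = 0.0198). Grk2 stayed called under the 14 alternatives, while Evc was lost under 11 of them, Iqce under 7 and Efcab7 under 4. With the GC content and length trend removed, Grk2 stood at 0.51 (adjusted p = 0.0320) and Iqce at 0.22 (adjusted p = 0.436), and Evc turned to -0.19 (adjusted p = 0.420). Efcab7 was not called then (-1.31, adjusted p = 0.111) and Tulp3, which brings receptors into the cilium, was called higher, so that 2 of the 10 were called, both higher, 20% against 31.7% of all genes called in that fit.

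Of the 12 genes that process Gli proteins, 2 rose and 3 fell, 41.7% called against 39.8% of all genes. Cul3, the scaffold of the ubiquitin ligase that Spop guides to Gli proteins, had a log2 fold change of -1.11 (SE 0.173, edgeR adjusted p = 0.000427). Csnk1a1, a kinase that marks Gli proteins for cutting, had -0.81 (SE 0.120, adjusted p = 0.000303), and Kif7, a motor protein that controls Gli at the cilium tip, had 0.85 (SE 0.287, adjusted p = 0.0342). Csnk1d (0.65, adjusted p = 0.00337) rose and Spop (-0.48, adjusted p = 0.0126) fell. With the GC content and length trend removed, Cul3 (-0.12, adjusted p = 0.634), Kif7 (-0.02) and Csnk1d (0.22, adjusted p = 0.254) were no longer called, and Csnk1a1 (-0.41, adjusted p = 0.0212) and Spop (-0.40, adjusted p = 0.0332) were. Btrc, which leads Gli proteins to a ubiquitin ligase, was newly called higher and the kinase Csnk1e newly lower, so that 4 of the 12 were called, 1 higher and 3 lower, 33.3% against 31.7% of all genes in that fit. Kif7 was lost under 8 of the 14 alternatives, and Spop when either dexamethasone library was left out.

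Of the 8 further targets tested, 2 rose by edgeR's test, 25% against 20.9% of all genes called higher, and none fell. These were the forkhead factor Foxf2 (log2 fold change 1.93, SE 0.328, adjusted p = 0.000740) and the growth factor Bmp4 (1.21, SE 0.355, adjusted p = 0.0185). Foxf2 stayed called under the 14 alternatives, at 1.05 with the GC content and length trend removed, and Bmp4 was lost under 4 of them, that one included, where Foxf2 was the 1 target of 8 called higher, 12.5% against 16.0% of all genes. Ccnd1, Ccnd2, Bcl2, Foxf1, Foxl1 and Pthlh were not called. Of the 5 genes tested for making and releasing ligands, Hhat, which attaches a lipid to the ligands, rose from 7.44 ± 0.523 to 15.0 ± 3.39 CPM (adjusted p = 0.0447) and was lost under 8 of the 14 alternatives. It was the 1 called of the 5, 20% against 39.8% of all genes. With the trend removed, Disp1 and Disp2, which belong to the family that releases ligands from the cell, were called lower beside Hhat called higher, 3 of the 5 or 60% against 31.7% of all genes, with a median log2 fold change of -0.85.

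**Figure D5:**
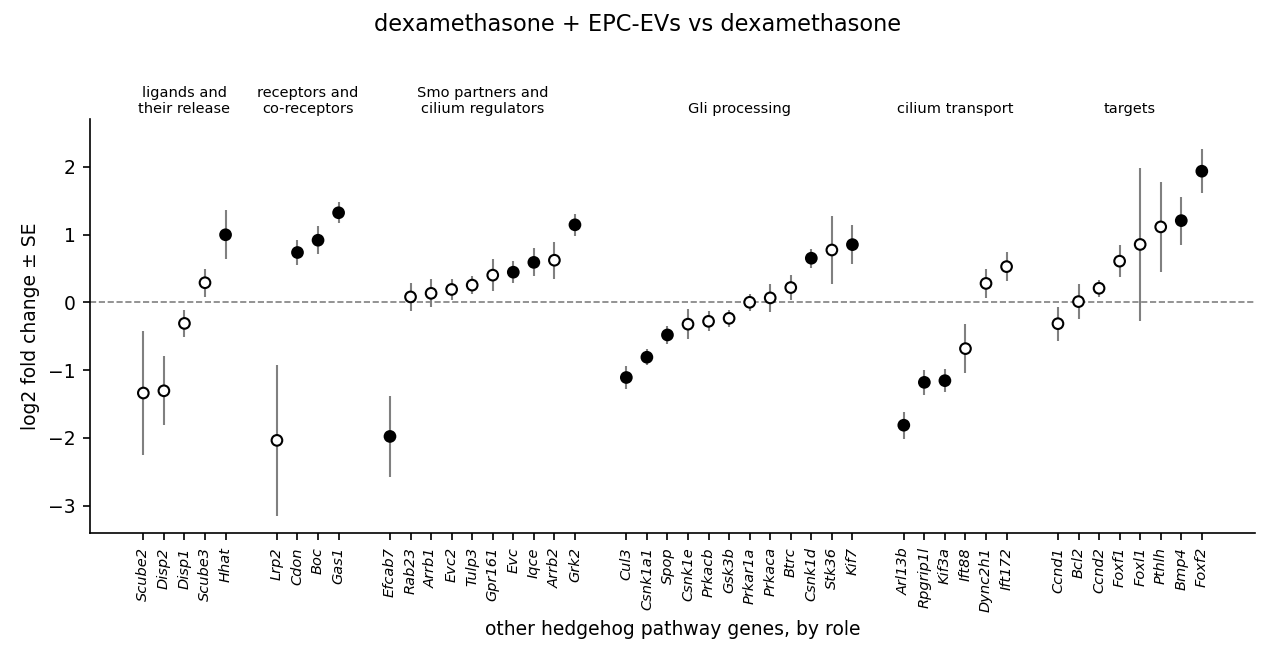
Log2 fold changes of 45 other hedgehog pathway genes in dexamethasone + EPC-EVs against dexamethasone, grouped by role, with bars of 1 SE from edgeR and filled points for an adjusted p under 0.05. The co-receptors Gas1, Boc and Cdon lie above 0 and the cilium genes Arl13b, Rpgrip1l and Kif3a below it, with Arl13b lowest of the filled points after Efcab7.

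Against control, 19 of the 45 tested were called in dexamethasone + EPC-EVs, 42.2% against 36.4% of all genes, 12 higher and 7 lower, and the median log2 fold change of the 45 was 0.12 against 0.02. Gas1 and Boc were again among those that rose and Arl13b, Kif3a and Rpgrip1l among those that fell, in a comparison that shares the dexamethasone + EPC-EVs libraries. The largest rise among the called genes was that of Stk36, a kinase of the Gli pathway, with a log2 fold change of 2.12 (SE 0.646, edgeR adjusted p = 0.0327). Stk36 was lost when either dexamethasone + EPC-EVs library was left out. With the GC content and length trend removed, 11 of the 45 were called, 24.4% against 26.4% of all genes in that fit, with 5 higher and 6 lower, and the median of the 45 was -0.16. None of the 4 co-receptors was called then. Gas1 (-0.16), Boc (0.14), Rpgrip1l (-0.44), Foxf2 (0.49) and Stk36 (1.42) were not called, and Arl13b (-1.93) and Kif3a (-1.48) were. Ccnd2, Tulp3 and Btrc were newly called higher in that fit, and Csnk1e and Evc2 newly lower.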

How the data were processed

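The 6 RNA-seq libraries, 2 per group, were grouped by their deposited labels. The series text names fibroblasts and 48 hours, and the sample labels were followed. The authors aligned reads to GRCm38 with HISAT2, counted them per gene with HTSeq 0.6.1 (per the labels) and deposited counts without normalisation. The FPKM values deposited by the authors equal count / (length × library total) with 1 length per gene, within 0.1% for 100% of 99667 values. That length was derived from the same values and was not checked on its own. For Ptch1 it was 14185 bases, against 10383 for the longest annotated transcript. The order of genes by FPKM rests on these lengths. The authors' transcript FPKM come from StringTie, and the copy used here holds chromosome 1, with its last line cut short and left out.

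Counts were fitted per comparison, on its 4 libraries, with edgeR 4.0.16 in R 4.3.3 (TMM, filterByExpr, robust quasi-likelihood test), and Benjamini-Hochberg adjustment took in every gene tested, with calls at an adjusted p under 0.05. CPM use TMM over the 6 libraries. Transcripts were tested with limma 3.58.1 on log2(FPKM + 1). The scripts were tested on simulated data. Replicates differed by more than sampling noise (chi-square per degree of freedom 7.17 to 20.1). The correlation of the deviations of same-numbered libraries was 0.00732 to 0.0619, so the numbers were not taken to pair the samples.

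The 7 genes, the pathway list and the markers were chosen with earlier results of these data known. The genes named are the 7, the called genes of the pathway list by role, and the 3 genes most like each of them. Alternatives were RLE and upper quartile scaling, mitochondrial genes left out, DESeq2 1.42.0, no filter or a minimum mean of 1 CPM, a joint fit of the 6 libraries, a replicate block, limma on FPKM, leaving out each library, the threshold of the study's methods (a log2 fold change beyond 1.5 with an unadjusted p under 0.05) and, chosen after the data were seen, removal of a loess trend (span 0.4) on GC content and transcript length. Protein sequences were not used here.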

Additional observations from a re-analysis of the deposited data

How the results depend on the processing

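Smo was upregulated in dexamethasone + EPC-EVs under every alternative on the adjusted p except removal of the GC content and length trend, where its log2 fold change fell to 0.33 against dexamethasone and turned to -0.090 against control. The cause was not tested. The same setting turned Sufu to -0.53 against dexamethasone and -0.39 against control, turned Gli1 to -0.70 in dexamethasone + EPC-EVs against control, and turned values near 0 in dexamethasone against control to -0.41 (Smo), 0.033 (Ptch1) and 0.020 (Gli3). It left 0 of the hedgehog genes called and 11 of the other pathway genes called between dexamethasone + EPC-EVs and control. On FPKM with limma, Ptch1 (0.039) and Gli3 (0.057) changed sign between dexamethasone and control. Sufu changed sign between dexamethasone + EPC-EVs and dexamethasone with limma (-0.029), RLE (-0.0018) and upper quartile scaling (-0.032).

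With 1 library left out at a time, the log2 fold changes in dexamethasone against control ran from -0.19 to 0.17 for Ptch1, -0.076 to 0.13 for Smo and -0.12 to 0.092 for Gli3, and that of Sufu in dexamethasone + EPC-EVs against dexamethasone from -0.073 to 0.12. The hedgehog genes called numbered 0 to 2 between dexamethasone and control, 1 to 2 between dexamethasone + EPC-EVs and dexamethasone, and 1 to 2 between dexamethasone + EPC-EVs and control. The other pathway genes called numbered 0 to 12, 9 to 17 and 13 to 22, and all genes called 9 to 2200, 3250 to 4813 and 3375 to 6231. The 2200 came without control replicate 1, and Sufu and Gli1 were the hedgehog genes called then. A group left with 1 library is assumed to vary like the other.

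Between dexamethasone and control, where 7 genes were called, the count was 1 without mitochondrial genes, 129 with DESeq2, 248 without a filter on low counts (1 of the other pathway genes among them), 11 with a minimum mean of 1 CPM, 0 with limma, 17 with the trend removed and 182 at the threshold of the study's methods. In dexamethasone + EPC-EVs against dexamethasone, 1 hedgehog gene rather than 2 was called with a minimum mean of 1 CPM, with all 6 libraries and with limma. In each of these Gli2 was lost and Smo kept. The threshold of the study's methods, with its log2 fold change beyond 1.5, gave 1922 genes, 1 hedgehog gene (Gli2) and 3 other pathway genes there, and 2793, 0 and 6 between dexamethasone + EPC-EVs and control. With the replicate number as a block, 43 genes were called between dexamethasone and control, and no call of a hedgehog gene changed. The Gli2 transcript could be tested only without the filter on low values, and was not called there. Gli1 and Gli2 had the lowest counts of the hedgehog genes in every library, at 28 to 154 and 0 to 18 counts per library, with 2 libraries per group.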

Other observations

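The pattern of Gli2, a count of 0 in 4 libraries and at least 8 counts in each dexamethasone library, was looked for in the whole table after its values were seen. It was shared by 3 genes, Gli2, 3110082J24Rik and Gm33051, and 1 of them, Gli2 itself, reached 26 counts over both libraries. The limits of 8 and 26 counts were taken from Gli2, so that Gli2 meets both by construction. The same search for genes seen in a single group gave 2 genes for control and 33 for dexamethasone + EPC-EVs, whose libraries hold the larger totals. In all, 108 genes, these 3 included, had 0 in the 4 other libraries and a count in both dexamethasone libraries.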
